A study of Homo sapiens with 4 samples.

Results

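The 9 laminin chain genes LAMA1, LAMA2, LAMA3, LAMA4, LAMA5, LAMB1, LAMB2, LAMB3 and LAMC1 were taken by symbol from a count table of 36359 genes, and all 9 were among the 21630 genes with enough reads to be tested. RNA sequencing was done on ACHN, a human cell line of renal cell carcinoma (RCC), in 2 libraries of cells transfected with the negative control siNC and 2 libraries of cells transfected with siPRR11, which targets PRR11. The study asked which pathways act downstream of PRR11 in RCC. All 4 libraries came from this single line, the labels do not say whether replicates were separate cultures or which of the study's 2 PRR11 duplexes each siPRR11 library received, and the p-values therefore measure only the spread between these libraries, which may be technical.

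Laminins are secreted heterotrimers of 1 alpha, 1 beta and 1 gamma chain that polymerise into the sheet on which a basement membrane is built. The beta and gamma chains pair inside the cell, and an alpha chain must join them before the trimer is secreted. The alpha chain also carries the globular domains that integrins and dystroglycan on the cell surface recognise. Trimers are named by their 3 chain numbers, so that laminin-111 is LAMA1, LAMB1 and LAMC1, laminin-511 is LAMA5, LAMB1 and LAMC1, and laminin-521 is LAMA5, LAMB2 and LAMC1. In the kidney, laminins line tubules and the glomerular filter, where laminin-521 is the main mature form.

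PRR11 was checked first. Its level in CPM (reads of the gene scaled by TMM to a library of fixed size) was 41.2 and 40.3 in the siNC libraries and 15.3 and 14.0 in the siPRR11 libraries, so that 35.9% of the control transcript remained (log2 fold change -1.48, SE 0.0909, adjusted p = 3.35e-06, quasi-likelihood test of edgeR, Benjamini-Hochberg adjusted over every tested gene, n = 2 libraries per group, the source of each adjusted p below unless another test is named). The libraries held 59003839 to 92612749 counted reads, mitochondrial genes took 4.96% to 5.58% of them, and replicate libraries differed by more than counting noise (chi-square per degree of freedom 20.1 in siNC and 14.1 in siPRR11). All 8 renal epithelial or renal carcinoma markers were detected (summed level 3086 to 3607 CPM in siNC and 3101 to 3244 CPM in siPRR11), with KRT18 higher and KRT19 and EPCAM lower in siPRR11. All 4 endothelial markers and 3 of 4 leukocyte markers stayed under 1 CPM in every library, the exception being CD68. Of 6 fibroblast or mural markers 3 stayed under 1 CPM in every library, and the summed level of the list was 65.3 and 55.6 CPM in siNC and 129.8 and 106.7 CPM in siPRR11, with PDGFRB and COL1A1 called higher. The part of these marker shifts in the laminin values was not tested.

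Among the 9 chains, LAMA5 rose and LAMA3, LAMB1 and LAMB3 fell after PRR11 knockdown, to between 77.0% (LAMB3) and 119.6% (LAMA5) of the siNC level, and the other 5 did not pass the test. The 4 called chains compare with 16.7% of all tested genes called (7.61% higher and 9.14% lower). The groups did not overlap in CPM for 6 of the 9 chains, against 58.4% of all tested genes. The median log2 fold change of the 9 chains was -0.06, beside a median of 0.0022 over all tested genes. These calls were not stable. Limma on the log2 RPKM values called 0 of the 9 chains, and 1775 or 1878 of the 21630 tested genes (pseudocount 1 or 0.1). With a single library left out of the edgeR test, each of the 4 calls was lost in some of the fits. The log2 fold changes of these fits lay between -0.44 and -0.32 (LAMB3), -0.45 and -0.15 (LAMA3), -0.30 and -0.24 (LAMB1) and 0.20 and 0.32 (LAMA5). In bulk RNA a lower level cannot be told apart from fewer cells that express the gene.

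**Figure D1:**
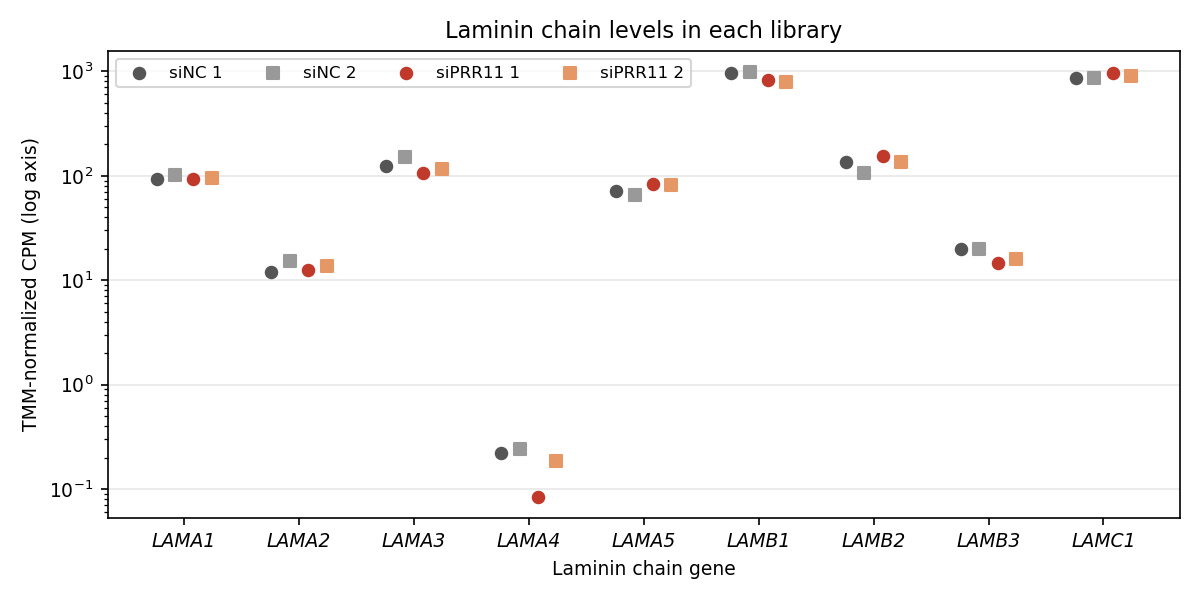
TMM-normalized CPM (log axis) of the 9 laminin chain genes in each of the 4 libraries; circles are replicate 1, squares replicate 2, grey siNC and red or orange siPRR11. LAMB1 and LAMC1 are the highest in every library (795.0 to 985.3 CPM), and LAMA4 lies below 1 CPM. The siPRR11 points lie below both siNC points for LAMB1, LAMB3, LAMA3 and LAMA4 and above them for LAMA5 and LAMC1.

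The upstream sequences of 5 chains are shown because these genes are the 4 that passed the test plus LAMC1, the abundant partner of LAMB1 that did not. Each is the 250 bases before a RefSeq transcription start (GRCh38.p14), 5′ to 3′ on the strand of the gene. Capitals mark matches on either strand to GGGCGG (the GC box bound by SP factors), TGANTCA (the AP-1 site) or CAGGTG (an E-box). Neighbouring or overlapping matches run together. Of the LAMB3 windows, the one shown is not at the main start and is the only one with a TGANTCA match.
LAMB1, chr7:108003162-108003411, minus strand: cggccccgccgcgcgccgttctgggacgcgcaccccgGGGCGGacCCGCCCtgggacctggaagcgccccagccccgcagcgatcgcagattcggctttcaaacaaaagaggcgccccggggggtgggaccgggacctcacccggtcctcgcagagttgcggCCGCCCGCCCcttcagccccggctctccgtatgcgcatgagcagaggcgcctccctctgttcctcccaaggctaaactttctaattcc
LAMC1, chr1:183023170-183023419, plus strand: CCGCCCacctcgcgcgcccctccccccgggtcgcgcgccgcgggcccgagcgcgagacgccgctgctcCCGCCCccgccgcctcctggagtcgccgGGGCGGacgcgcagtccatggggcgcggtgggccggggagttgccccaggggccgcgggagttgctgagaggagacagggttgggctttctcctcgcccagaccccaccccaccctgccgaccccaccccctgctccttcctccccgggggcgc
LAMA5, chr20:62367313-62367562, minus strand: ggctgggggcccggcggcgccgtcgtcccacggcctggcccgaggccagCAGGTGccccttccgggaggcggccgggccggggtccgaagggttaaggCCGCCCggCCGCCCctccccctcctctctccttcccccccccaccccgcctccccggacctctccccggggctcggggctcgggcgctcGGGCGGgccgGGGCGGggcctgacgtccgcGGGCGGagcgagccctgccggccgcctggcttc
LAMA3, start of the short transcript, chr18:23872770-23873019, plus strand: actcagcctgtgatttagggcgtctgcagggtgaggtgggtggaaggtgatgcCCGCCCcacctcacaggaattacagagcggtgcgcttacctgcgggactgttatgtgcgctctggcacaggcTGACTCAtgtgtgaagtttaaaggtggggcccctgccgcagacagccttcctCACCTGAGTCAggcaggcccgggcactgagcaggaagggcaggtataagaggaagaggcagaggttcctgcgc
LAMB3, a start inside the gene, chr1:209651375-209651624, minus strand: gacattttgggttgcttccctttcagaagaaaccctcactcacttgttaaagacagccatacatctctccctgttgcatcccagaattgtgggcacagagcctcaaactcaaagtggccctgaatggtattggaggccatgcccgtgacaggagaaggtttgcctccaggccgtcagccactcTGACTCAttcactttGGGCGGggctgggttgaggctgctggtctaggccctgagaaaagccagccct

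The LAMB1, LAMC1 and LAMA5 windows were rich in G and C (70.4%, 79.6% and 82.8%, beside a median of 58% over 35116 promoters of the same length) and held 4, 3 and 5 GC boxes, a motif found at least once in 42.6% of all promoters. The LAMA3 window upstream of the short transcript held 2 AP-1 matches, at 125 and 69 bases before the start, and the LAMB3 window at the start inside the gene held 1, at 67 bases. The windows at the main LAMB3 start and at a further LAMB3 start held none. TGANTCA occurred in 6.57% of all promoters and in no window of the other chains. CAGGTG occurred in 17.5% of all promoters, and among these 9 chains was present in the LAMA3 and LAMA5 windows and in the window before the main LAMB3 start. Neither TATAAA (10.7% of all promoters) nor CACGTG (6.34%) was found in any of the 10 windows of the 8 chains with an entry. A match describes letters and does not show binding. Of the 3 windows with several GC boxes, LAMB1 belonged to a gene that fell, LAMA5 to one that rose and LAMC1 to one that was not called.

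The beta chains held the most abundant member. LAMB1 (chr7:107923799-108003255, minus strand), the widely expressed beta chain of laminin-111 and laminin-511, had 968.7 and 985.3 CPM in siNC and 828.7 and 795.0 CPM in siPRR11. Both siPRR11 libraries were below both siNC libraries, and the gap between the groups was wider than the distance between replicates. LAMB1 fell to 83.1% of its siNC level (95% interval 74.8% to 92.3%, log2 fold change -0.27, SE 0.0697, adjusted p = 0.0216). The call was lost without siPRR11 replicate 1 (log2 fold change -0.30) and without siPRR11 replicate 2 (-0.24), where a single siPRR11 library remained. In RPKM, which is scaled for gene length as well as library size and so allows genes to be compared, LAMB1 stood at 118.1 ± 1.31 (SD, n = 2) in siNC, rank 354 of 36359 genes.

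LAMB2 (chr3:49121114-49133118, minus strand), the beta chain of the glomerular filter whose loss causes Pierson syndrome, had 135.1 and 106.1 CPM in siNC and 153.4 and 134.6 CPM in siPRR11. The siPRR11 replicate 2 library lay just below siNC replicate 1, so the groups overlapped. The estimate was 119.4% of siNC (95% interval 101.4% to 140.6%, log2 fold change 0.26, adjusted p = 0.134). It passed the test without siNC replicate 1 (log2 fold change 0.44) and without siPRR11 replicate 2 (0.35), and was 0.092 without siNC replicate 2 and 0.16 without siPRR11 replicate 1. It also passed with no filter on low counts (adjusted p = 0.0166) and with the replicate number as a block (adjusted p = 0.00026).

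LAMB3 (chr1:209614870-209652466, minus strand), the beta chain of laminin-332, which anchors epidermis and other epithelia and is mutated in junctional epidermolysis bullosa, had 19.7 and 19.9 CPM in siNC and 14.6 and 15.9 CPM in siPRR11. It fell to 77.0% of siNC (95% interval 66.6% to 89.0%, log2 fold change -0.38, SE 0.0958, adjusted p = 0.0192). This was the lowest adjusted p among the 9 chains, and the call was lost without siPRR11 replicate 1 (log2 fold change -0.32).

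The sole gamma chain of the set, LAMC1 (chr1:183023460-183145592, plus strand), is shared by nearly all laminins outside laminin-332. Its level was 868.5 and 862.1 CPM in siNC and 956.8 and 908.5 CPM in siPRR11. Both siPRR11 libraries were above both siNC libraries, yet the estimate did not pass the test (107.8% of siNC, 95% interval 96.9% to 119.9%, log2 fold change 0.11, adjusted p = 0.335). LAMC1 was the abundant partner of LAMB1, at 101.3 ± 0.619 RPKM (SD, n = 2) in siNC.

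The level of LAMB1 relative to LAMC1 was lower in siPRR11. The ratio of LAMB1 to LAMC1 in RPKM was 1.15 and 1.18 in siNC but 0.894 and 0.904 in siPRR11. These ratios did not overlap. LAMB1 was lower and LAMC1 higher in both siPRR11 libraries than in both siNC libraries, so the ratio had to separate the groups. The 2-sided exact permutation test therefore had to give p = 0.333, the smallest value that 2 against 2 libraries allow. The ratio restates the levels of the 2 chains and is no further result. With the canonical transcript lengths in place of the counted exonic lengths, the ratio was 1.57 and 1.60 in siNC but 1.22 and 1.23 in siPRR11, so which of the 2 chains stood higher in siPRR11 depended on the length used. A ratio within a library does not depend on the scaling between libraries.

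Among the alpha chains, LAMA3 was the highest per length. LAMA3 (chr18:23689443-23955066, plus strand), the alpha chain of laminin-332, had 123.8 and 151.8 CPM in siNC and 107.3 and 115.4 CPM in siPRR11. The siPRR11 libraries were both below the siNC libraries, whose own values lay further apart than the gap between the groups. LAMA3 fell to 80.8% of siNC (95% interval 69.9% to 93.4%, log2 fold change -0.31, SE 0.0958, adjusted p = 0.0472). The call was lost without siNC replicate 2 (log2 fold change -0.15) and without siPRR11 replicate 1 (-0.26). The gene has a long transcript of 10651 bases in 75 exons and a short one of 5618 bases in 38 exons (GENCODE 44), the counts do not separate them, and the counted exonic length was 13522 bases.

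LAMA5 (chr20:62307955-62367312, minus strand), the main alpha chain of adult epithelial and glomerular basement membranes, had 71.8 and 65.8 CPM in siNC and 83.3 and 81.4 CPM in siPRR11. It was the single chain called higher, at 119.6% of siNC (95% interval 106.3% to 134.6%, log2 fold change 0.26, SE 0.0780, adjusted p = 0.0417). The call was lost without siNC replicate 2 (log2 fold change 0.20), without siPRR11 replicate 1 (0.24) and without siPRR11 replicate 2 (0.28). Exons of the opposite-strand genes ADRM1 and LAMA5-AS1 covered 2.52% of its counted length, and neither of these was called (adjusted p = 0.218 and 0.237).

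LAMA1 (chr18:6941744-7117814, minus strand), the alpha chain of early embryonic basement membranes and of laminin-111, had 92.3 and 101.6 CPM in siNC and 92.4 and 95.6 CPM in siPRR11. The groups overlapped, and the estimate was 96.9% of siNC (95% interval 86.1% to 109.1%, adjusted p = 0.751). LAMA2 (chr6:128883141-129516569, plus strand), the alpha chain of muscle and peripheral nerve laminin, had 11.96 and 15.3 CPM in siNC and 12.4 and 13.7 CPM in siPRR11. Its estimate was 96.1% of siNC with a wider interval (79.4% to 116.2%, adjusted p = 0.803).

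LAMA4 (chr6:112108760-112254939, minus strand), the alpha chain of vessel walls, was close to absent, with 18 and 14 reads in siNC and 8 and 16 reads in siPRR11. At this depth no difference was detectable (58.8% of siNC, 95% interval 24.9% to 139.2%, adjusted p = 0.407). The endothelial markers were under 1 CPM in the same libraries.

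Outside the 9 chains, LAMC3, a gamma chain with a narrow tissue range, had 4.23 and 4.90 CPM in siNC and 4.16 CPM in each siPRR11 library (adjusted p = 0.596). The beta chain LAMB4 had 3, 6, 10 and 2 reads in the 4 libraries and was not tested.

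Compared per counted exonic length in the siNC libraries, the order of the 9 chains was LAMB1, LAMC1, LAMB2 (17.3 ± 2.95 RPKM), LAMA3 (10.0 ± 1.43), LAMA1 (6.01 ± 0.404), LAMA5 (4.71 ± 0.294), LAMB3 (4.10 ± 0.0191), LAMA2 (1.33 ± 0.228) and LAMA4 (0.0196), each SD over n = 2. The library values of neighbours in this order did not overlap in siNC. In siPRR11, LAMC1 had 112.8 ± 4.37 RPKM and LAMB1 101.4 ± 3.20, an order that turned with the canonical transcript lengths. At the counted lengths, LAMA1 (6.02) and LAMA5 (5.83) differed in siPRR11 by little more than their spread. With the canonical lengths, LAMA1 took 33.9% and 33.8% of the summed alpha chains in siPRR11, and LAMA5 took 25.8% and 24.3%.

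The summed level of the alpha chains was far below that of the beta chains. Alpha chains summed to 20.8 and 23.3 RPKM in siNC and 21.2 and 21.9 RPKM in siPRR11. Beta chains, LAMB4 included, summed to 140.6 and 138.3 RPKM in siNC and 129.6 and 122.4 RPKM in siPRR11. The ratio of beta to alpha level was therefore 5.59 to 6.75 over the 4 libraries, and 3.56 to 4.19 when all LAMA3 reads were assigned to the short transcript. In each trimer of an alpha chain with LAMC1 and either LAMB1 or LAMB2, the alpha chain was the least abundant member in all 4 libraries at the counted lengths. With the short LAMA3 length, the ratio of LAMA3 to LAMB2 was 1.12 and 1.75 in siNC and 0.855 and 1.05 in siPRR11, so that LAMA3 was then above LAMB2 in 3 of the 4 libraries.

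The composition of the alpha chains and that of the beta chains differed between the groups. LAMA3 made up 43.2% and 47.3% of the alpha level in siNC and 38.2% and 39.5% in siPRR11, a difference of -6.42 percentage points. LAMA5 made up 23.6% and 19.3% in siNC and 27.9% and 26.2% in siPRR11, a difference of 5.61 points that was 3.45 without siNC replicate 2 and 7.77 without siNC replicate 1. Both shares separated the groups, and the ratio of LAMA3 to LAMA5 was 1.83 and 2.45 in siNC and 1.37 and 1.51 in siPRR11. LAMA3 was lower and LAMA5 higher in both siPRR11 libraries than in both siNC libraries. This ratio therefore had to separate the groups and is no further result.

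LAMA1 took 26.96% to 27.99% of the alpha level in the 4 libraries. With the length of the short LAMA3 transcript, LAMA3 took 64.7% and 68.3% of the alpha level in siNC and 59.8% and 61.1% in siPRR11, LAMA5 took 14.7% and 11.6% against 18.1% and 16.9%, and LAMA1 took 16.2% to 18.2%. LAMB1 made up 83.3% and 86.0% of the beta level in siNC and 80.0% and 81.0% in siPRR11, while LAMB2 took 13.8% and 10.98% in siNC against 17.6% and 16.3% in siPRR11. For the LAMA3, LAMA5 and LAMB1 shares the exact permutation p was 0.333, which 2 against 2 libraries cannot go below, so that these shares are descriptions.

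Over all tested genes 16.7% were called, the share beside which the neighbours of the chains are read. Genes overlapping a chain were left out of these neighbours. The nearest other tested genes on either side of LAMA1, LAMA4, LAMA5, LAMB1, LAMB2 and LAMB3 were not called. They lay between 176 bases (USP19, beside LAMB2) and 1370550 bases (PLXNA2, beside LAMB3) away. NRCAM, beside LAMB1, was just over the threshold (log2 fold change -0.51, adjusted p = 0.0514). DHX9, the neighbour of LAMC1 at lower coordinates, was not called either (log2 fold change -0.08, adjusted p = 0.479). TTC39C, 37707 bases from LAMA3, was lower (log2 fold change -0.48, adjusted p = 0.0220). PTPRK, 362467 bases from LAMA2, was lower too (-0.27, adjusted p = 0.0401). No chain had exons on the same strand in common with another gene. Opposite-strand exons covered 11.1% of the counted length of LAMA1 and 3.57% of that of LAMB1, where DLD was not called (log2 fold change -0.06, adjusted p = 0.596). Whether the counting used strand is not given in the sources used here.

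Over the 4 libraries, the profiles closest to LAMB1 among 10422 genes (Euclidean distance between centred log2 CPM values) were those of USP47, UBE2N and EVA1A, with distances of 0.00717, 0.0150 and 0.0150. Those closest to LAMC1 were RPTOR, UGGT1 and MRPL45, with distances of 0.0123, 0.0139 and 0.0177. Of the genes named here only USP47 was called (adjusted p = 0.0216). With 4 values per gene and this many genes, a small distance does not show that genes are regulated together, which was not tested.

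Laminins sit in a basement membrane with type IV collagen, nidogen and heparan sulfate proteoglycans. Of 18 such partner genes 16 were tested and 8 called, 3 higher and 5 lower, with a median log2 fold change of -0.11. The called share was 50%, beside 16.7% of all tested genes. COL4A1, a chain of the main basement membrane collagen, fell from 2907 ± 289 to 1152 ± 109 CPM (SD, n = 2, log2 fold change -1.34), and COL4A4 (-1.71), COL4A3 (-0.77) and COL4A6 (-0.68) fell too. COL4A2, which shares a trimer with COL4A1, had 3710 ± 38.2 CPM in siNC and 3232 ± 137 CPM in siPRR11 and did not pass the test (log2 fold change -0.20, adjusted p = 0.0784).

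FN1, fibronectin, fell (log2 fold change -0.29, adjusted p = 0.0477). The proteoglycan perlecan (HSPG2, log2 fold change 0.32, adjusted p = 0.0108), the peroxidase PXDN that crosslinks collagen IV (0.34) and fibulin FBLN1 (0.36) rose. NID1, the nidogen that links laminin LAMC1 to collagen IV, had a log2 fold change of 0.17 and did not pass the test (adjusted p = 0.140). The list had 5 calls without siPRR11 replicate 1, where COL4A6 (-0.60), HSPG2 (0.30) and FBLN1 (0.38) did not pass, and 5 without siPRR11 replicate 2, where FBLN1 (0.34), PXDN (0.32) and FN1 (-0.24) did not. FN1 also did not pass without siNC replicate 2 (-0.15). Limma called 5 or 4 partners, depending on the pseudocount, and COL4A1 and COL4A4 were called in every setting.

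Of the 15 laminin receptors and coreceptors 11 were called, in both directions (6 higher and 5 lower, median log2 fold change -0.14). That was 73.3% of the list, beside 16.7% of all tested genes. ITGB4, the beta subunit that joins laminin-332 to hemidesmosomes, rose from 39.6 ± 8.71 to 71.9 ± 12.04 CPM (SD, n = 2, log2 fold change 0.86, adjusted p = 0.0017). The Lutheran antigen BCAM, a receptor for LAMA5, rose by a log2 fold change of 0.54, dystroglycan (DAG1) by 0.50, the syndecans SDC4 by 0.48 and SDC2 by 0.42, and ITGA1 by 0.46.

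In contrast, the integrin subunits ITGB1 (log2 fold change -0.34, adjusted p = 0.0066), ITGA3 (-0.42) and ITGA6 (-0.28) fell, as did SDC1 (-0.54) and SDC3 (-0.37). ITGA6 pairs with ITGB4 or ITGB1 and moved against ITGB4. Limma called 8 receptors (pseudocount 1) or 9 (pseudocount 0.1). Neither limma fit called ITGB1 (log2 fold change -0.29 and -0.30) or ITGA6 (-0.22 and -0.23). The ITGA6 call was lost without siPRR11 replicate 1 and without siPRR11 replicate 2 (log2 fold change -0.29 and -0.28), and that of SDC2 without siPRR11 replicate 2 (0.30). BCAM, DAG1, ITGA1, ITGA3, ITGB4, SDC1 and SDC4 were called under every alternative run and without any single library.

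Of 6 hemidesmosome genes 3 were called (50%, beside 16.7% of all tested genes). ITGB4, ITGA6 and CD151 are also on the receptor list, so PLEC was the only call not already counted there. ITGB4 rose, and ITGA6 and the linker protein plectin (PLEC, log2 fold change -0.36) fell. Without siPRR11 replicate 2 (PLEC -0.31, ITGA6 -0.28), and under limma, 1 was called.

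Of 13 proteases that act on laminins 10 were tested and 4 called (40%, beside 16.7% of all tested genes). BMP1, which processes laminin-332 chains, rose (log2 fold change 0.41), and TLL2 (-0.52), the lysosomal protease CTSB (-0.41) and the membrane-type metalloproteinase MMP14 (-0.30) fell. The MMP14 call was lost without siNC replicate 1 (log2 fold change -0.23), without siPRR11 replicate 1 (-0.31) and without siPRR11 replicate 2 (-0.30). Among 9 netrins and other laminin-related genes 7 were tested and 1 called (14.3%, near the 16.7% of all tested genes). The called gene was NTN4, a laminin-binding netrin, which rose from 25.5 ± 0.615 to 43.4 ± 1.06 CPM (SD, n = 2, log2 fold change 0.77).

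The same 4 chains were called under DESeq2 and the edgeR exact test, and none was called under limma. Limma was run on the RPKM values, which carry no TMM scaling, so input and scaling changed along with the tool. Over the 8 alternatives that kept all libraries and a threshold on the adjusted p, the log2 fold change of LAMB3 lay between -0.38 and -0.26, that of LAMA3 between -0.31 and -0.23, that of LAMB1 between -0.27 and -0.22 and that of LAMA5 between 0.26 and 0.30. Each of these 4 was called in 6 of the 8 alternatives, the exceptions being limma on log2(RPKM + 1) and on log2(RPKM + 0.1). With a single library left out, LAMB3 was called in 3 of 4 fits, LAMA3 and LAMB1 in 2 and LAMA5 in 1. LAMC1 was called in none. PRR11 was called in all of them.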

How the data were processed

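Stranded mRNA libraries of 4 ACHN samples (2 siNC, 2 siPRR11) were grouped by their titles. The authors deposited raw counts per gene and RPKM, made from reads trimmed with Trimmomatic 0.36, mapped to GRCh38 with STAR and counted with featureCounts (Subread 1.5.1). The deposited RPKM values divide each count by exonic length and the library's total. Annotation release, strand setting and the handling of multi-mapping reads are not given in the sources used here.

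Counts were tested with edgeR 4.0.16 (R 4.3.3): TMM scaling, filterByExpr (14729 genes left out), quasi-likelihood fit with condition as the only term, and Benjamini-Hochberg adjustment over 21630 genes at 0.05. CPM are TMM-scaled. RPKM served comparisons between genes. Alternatives were DESeq2 1.42.0, limma 3.58.1 on log2(RPKM + 1) and log2(RPKM + 0.1), other scaling, filters and tests, a replicate block, and each library left out. Depth was 59003839 to 92612749 counted reads per library.

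The chains, gene lists and markers were chosen with earlier results of these data known, so no list is independent evidence. Genes named from each list were the up to 6 with the largest absolute log2 fold change among those called. Added to them were COL4A1, COL4A2, NID1, HSPG2, ITGB1, ITGA6, ITGA3 and DAG1 whatever their value. The rule also named the 3 closest profiles of the 2 most abundant chains and the nearest tested genes on each side of a chain that did not overlap it. FN1, SDC2, SDC3, the markers called and the overlapping genes ADRM1, LAMA5-AS1 and DLD were named outside this rule, after their values were seen. Some planned results are not reported here. Promoters were taken from RefSeq (GRCh38.p14) by symbol, for 8 of the 9 chains, and searched on both strands for the 5 motifs spelled out above. GENCODE 44 gave transcript lengths, used as alternatives for shares and ratios after the data were seen.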

Additional observations from a re-analysis of the deposited data

How the results depend on the processing

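Of the 21630 genes tested, 3622 were called, 6988 with the replicate number as a block, 6553 at an unadjusted p under 0.05, 1775 (limma, pseudocount 1) and 1878 (limma, pseudocount 0.1), and 2217 to 4251 with a library left out. The lone library of a group was then assumed to vary like the other group. Laminin chains called were 4, then 5 without a filter, 5 with the block, 5 unadjusted, 0 under both limma settings and 0 to 5 with a library left out. Basement membrane partners called fell from 8 to 5 and 4 under limma and to 5 to 8 with a library left out, and hemidesmosome genes from 3 to 1 under both and to 1 to 3. Netrins and related genes called went from 1 to 2 without a filter, 3 with the exact test, 4 with the block, 4 unadjusted and 1 to 2 with a library left out. LAMA1 changed sign under limma (log2 fold change 0.0031 and 0.0038). The median log2 fold change over all tested genes was 0.0206 and 0.0447 in these limma fits, beside 0.0022 in the edgeR test. LAMA1 also changed sign without siNC replicate 2 (0.025), with a range of -0.11 to 0.025 when a library was left out. LAMA2 did so without siNC replicate 2 (0.13) and without siPRR11 replicate 1 (0.011), with a range of -0.23 to 0.13. With the block, LAMB2 was called (log2 fold change 0.26). No label says that a replicate number marks a shared culture, batch or day, and whether it does was not tested. Deviations of the replicate 1 libraries correlated at 0.16, and 8 of 9 chains moved the same way between replicates in both groups, beside 61.6% of tested genes. LAMA4 gave no value with at least 10 counts in every library. The 2 libraries per group limit every p-value, and the cause of these shifts was not tested.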
